A study of Ovis aries and Capra hircus and Bos taurus with 26 samples.

Results

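The chromosome that carries the major histocompatibility complex (MHC) is number 23 in cattle, number 20 in sheep and number 23 in goats, the counterpart of the short arm of human chromosome 6. The members described here are all peaks of H3K27ac and H3K4me3 on these homologous chromosomes in liver, chosen by chromosome name alone. There were 18476 such peaks among 616400 in all lists, and the chromosome held between 810 and 1410 peaks in a library. It carried 2.89% to 3.25% of the H3K27ac peaks on the autosomes of a library and 3.33% to 3.59% of the H3K4me3 peaks.

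The MHC is a gene-dense segment of the genome. Its class I genes present peptides from inside the cell to cytotoxic T cells, its class II genes present peptides taken up from outside to helper T cells, and the class III genes between them include complement components and tumour necrosis factor. In ruminants an inversion split class II, with the classical DR and DQ genes in class IIa beside class III and the antigen-processing genes in class IIb far away. Acetylated lysine 27 of histone H3 (H3K27ac) is found at active promoters and at enhancers, whereas trimethylated lysine 4 of the same histone (H3K4me3) is found mainly at promoters.

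The libraries were made by chromatin immunoprecipitation and sequencing from frozen liver of 9 adult healthy animals, namely Holstein cattle, Texel sheep and Yunnan black goats, with 3 animals per species (A, B and C). Both marks were available in every animal except cattle animal A, which had H3K4me3 only, so that 17 lists were used, 8 of H3K27ac and 9 of H3K4me3. The methods state no treatment of the animals. Species, breed and genome build (ARS-UCD1.2 in cattle, Oar_rambouillet_v1.0 in sheep, ARS1 in goats) cannot be told apart. Nor can age be told apart from them, since the methods give the cattle a higher age range than the sheep and goats. A list states positions and strengths of peaks but no read number, so the depth was not measured here, and bulk liver does not show which cells carried a peak. The 9 input libraries entered no comparison.

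No gene can be placed on the peak coordinates, because no annotation of these builds was used. The order of genes was read from RefSeq's annotation of another sheep assembly (ARS-UI_Ramb_v3.0), in which 71 of 91 listed genes were found on chromosome 20 among 710 protein-coding genes. The 6 class IIb genes found of 12 listed lay at places 25 to 35 in the order, and they include TAP1 and TAP2, the peptide transporter, and PSMB8 and PSMB9, subunits of the immunoproteasome. DRA, which encodes the alpha chain of the class II DR molecule and is the only class IIa gene found of 6, lay at place 276, with 240 genes between the groups. Of the class III genes 24 of 27 were found, at places 290 to 350, from NOTCH4, a cell surface receptor, through the complement genes CFB and C2 and then TNF to DDX39B, an RNA helicase. Next came 17 of the 21 genes listed as class I and its neighbours, ending with GABBR1, a receptor for the transmitter GABA, at place 405. All 17 are neighbours. The class I names BOLA, JSP.1 and BOLA-NC1, and the related MICB, were not found, so no class I gene was placed in the order. Between GABBR1 and HFE, a regulator of iron uptake at place 558, the annotation listed 174 of the 201 transfer RNA genes of the chromosome and 152 protein-coding genes. Of the 25 other genes listed for their use in liver, 23 lay on chromosome 20, such as GCLC of glutathione synthesis at place 23 and F13A1 of blood clotting at place 675.

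The first comparison asked how densely the chromosome was marked. H3K27ac reached 23.5 and 26.3 peaks per Mb in cattle B and C. In sheep A, B and C it reached 21.2, 20.8 and 22.7 peaks per Mb, and in the goats 25.7, 28.9 and 26.6. H3K4me3 reached 16.7, 15.4 and 16.97 peaks per Mb in the cattle, 17.4, 18.8 and 18.2 in the sheep and 16.7, 18.7 and 19.0 in the goats. In each species every H3K27ac library lay above every H3K4me3 library. The log2 difference in density, H3K27ac minus H3K4me3, averaged 0.48 over species, a ratio of 1.39 (two-sided exact permutation test of mark labels within species, p = 0.00025, the smallest that 4000 arrangements allow, and 0.00175 after Benjamini-Hochberg adjustment over the 14 tests run). Cattle had a ratio of 1.52, sheep of 1.19 and goats of 1.49. H3K27ac was the denser mark on the other autosomes too. Mean densities there, H3K27ac before H3K4me3, were 16.1 and 9.97 peaks per Mb in cattle, 14.1 and 10.6 in sheep and 17.8 and 10.4 in goats. With a stricter threshold on peaks (−log10 q of at least 5) the log2 difference was 0.23 (p = 0.0065, exact permutation test). In covered bases the marks differed by 0.05 on the log2 scale (p = 0.52, the same exact permutation test). Among the 20000 strongest peaks of each library they differed by 0.04 (p = 0.120, exact permutation test). That choice gives every library the same number of peaks, so a difference in list length is removed beforehand.

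The chromosome was more densely marked than the rest of the autosomes in all 17 libraries. For H3K27ac its density was 1.47 to 1.59 times that of the other autosomes, with a mean ratio of 1.53 (8 of 8 animals above 1, two-sided exact sign-flip test over animals, p = 0.0078125, adjusted p = 0.0122). For H3K4me3 the ratio was 1.60 to 1.78, with a mean of 1.70 (9 of 9 animals, exact sign-flip test, p = 0.00390625, adjusted p = 0.00911). Both p-values are the smallest that the number of animals allows. A density above that of the other autosomes in every library is common among chromosomes. It held for 55.2% of the autosomes for H3K27ac and 51.7% for H3K4me3 in cattle, for 53.8% and 46.2% in sheep, and for 48.3% and 48.3% in goats. By rank, the chromosome came 4th in every library, among 29 autosomes in cattle and goats and 26 in sheep. Ahead of it lay chromosomes 19, 25 and 18 in cattle and goats, and 11, 24 and 14 in sheep. For H3K27ac in cattle, the chromosome had 24.9 peaks per Mb, the one above it 27.3 and the one below it 19.1.

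**Figure D1:**
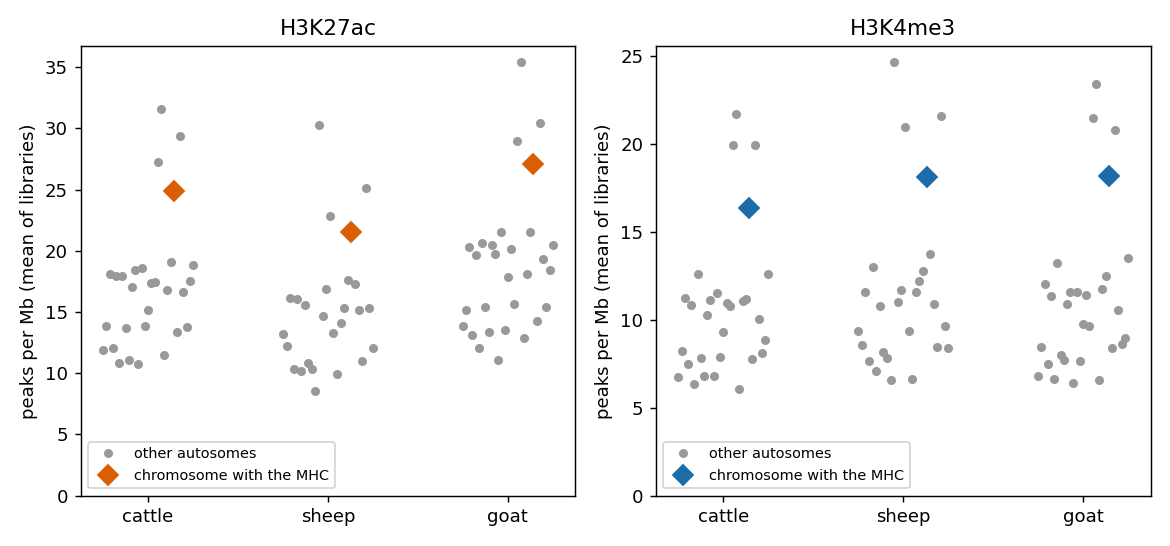
Peaks per Mb (mean over the libraries of a species) of each autosome, for H3K27ac on the left and H3K4me3 on the right. Grey points are the other autosomes and diamonds the chromosome with the MHC, which stood 4th in all 6 groups.

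The excess over the other autosomes was larger for H3K4me3 than for H3K27ac. The log2 of relative density differed by -0.15 between the marks, H3K27ac minus H3K4me3 (exact permutation test of mark labels within species, p = 0.0005, adjusted p = 0.00233), and the marks did not overlap in any species. The difference was smaller in covered bases (-0.08, p = 0.00025, the same exact permutation test) and among the 20000 strongest peaks of each library (-0.06, p = 0.00125, exact). For H3K4me3 the relative density on the log2 scale was 0.72 ± 0.04 for the cattle, 0.78 ± 0.01 for the sheep and 0.81 ± 0.02 for the goats (n = 3 each, SD), and the species differed (F = 8.99, exact permutation test over 1680 arrangements, p = 0.00714, adjusted p = 0.0122). Cattle were lowest, with 0 of 3 cattle libraries above the lowest sheep or goat library. For H3K27ac the values were 0.63, 0.61 and 0.61, and no difference between the species passed the threshold (F = 0.206, exact permutation test over 560 arrangements, p = 0.821).

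The peaks were spread unevenly along the chromosome, with peaks assigned to 1 Mb bins by their midpoint. The coefficient of variation of the count over bins lay between 0.774 and 0.905 for H3K27ac and between 0.922 and 1.04 for H3K4me3. H3K4me3 was the more uneven mark, with a difference of -0.16, H3K27ac minus H3K4me3 (exact permutation test of mark labels within species, p = 0.00025, adjusted p = 0.00175), and the marks did not overlap in any species. The difference was -0.10 with bins shifted by 500 kb (p = 0.00025, exact permutation test) and -0.05 among the 20000 strongest peaks (p = 0.003, exact). Between animals of a species, counts over bins correlated with Pearson's r of 0.979 to 0.995 (49 to 56 bins that share a chromosome, given as a description). Between the mean counts of the marks, cattle gave r = 0.86, sheep 0.92 and goats 0.92.

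**Figure D2:**
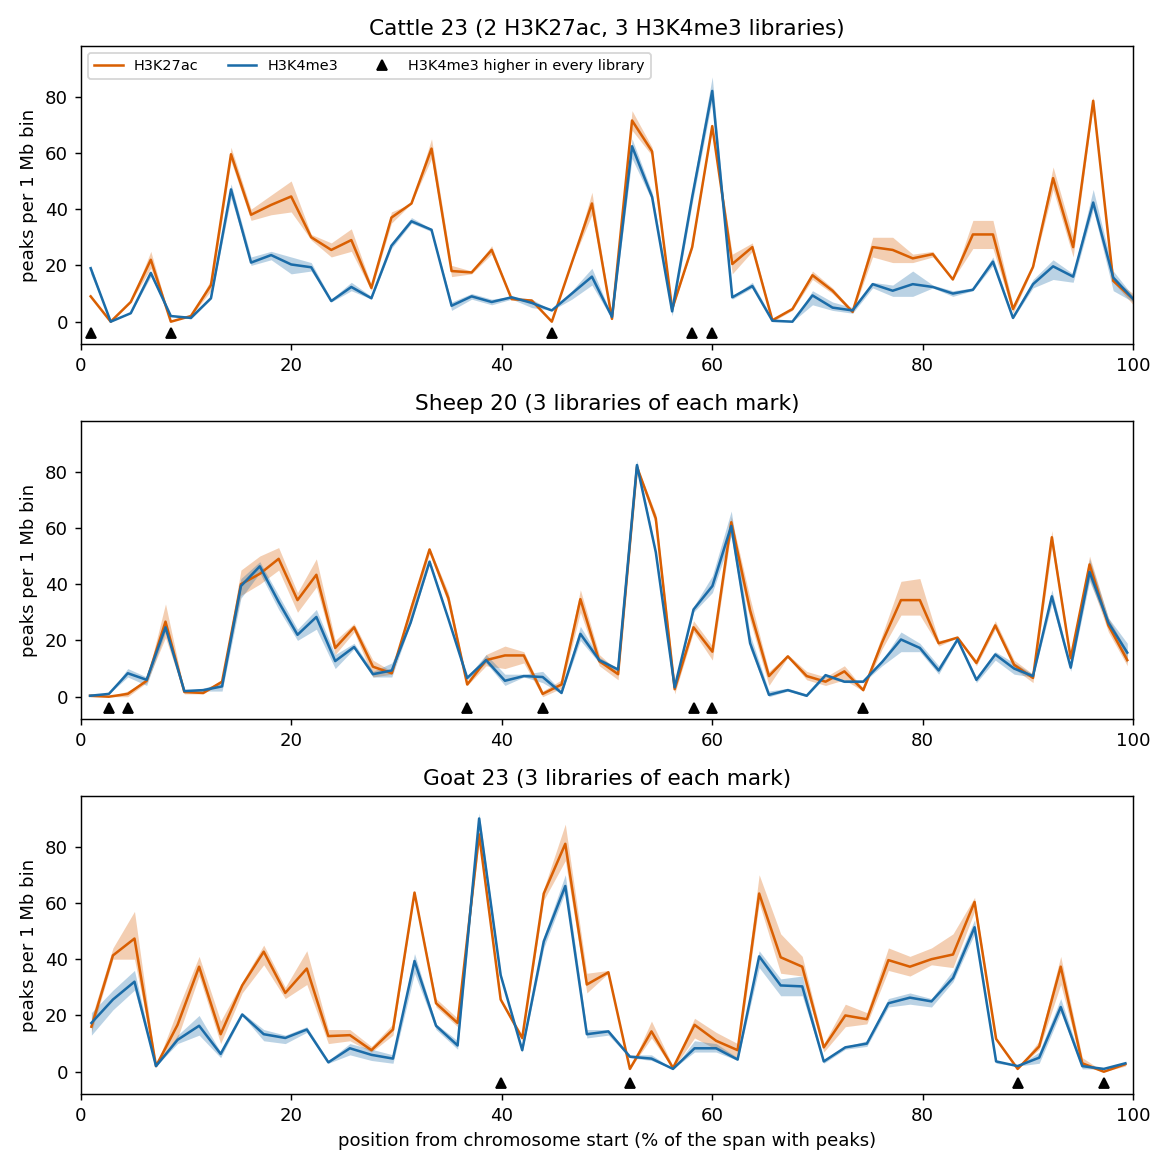
Peaks per 1 Mb bin along the chromosome in cattle, sheep and goats, with position from the start as a percentage of the span with peaks. Lines are means over libraries, bands run from the lowest to the highest library, and triangles mark the 5, 7 and 4 bins where every H3K4me3 library exceeded every H3K27ac library.

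Both marks crowded into a segment near the middle of the chromosome. In cattle the densest H3K4me3 bin was 31 to 32 Mb, with 79, 80 and 87 peaks in animals A, B and C, where the H3K27ac libraries of B and C had 69 and 70. In sheep the bin at 29 to 30 Mb was the densest for both marks, with 82, 81 and 82 H3K27ac peaks and 82, 81 and 84 H3K4me3 peaks. In goats the bin at 18 to 19 Mb was the densest for both marks, with 86, 85 and 82 H3K27ac peaks and 86, 92 and 92 H3K4me3 peaks. For a mark, the animals of a species stood within 8 peaks of each other in each of these bins. The next most crowded were 27 to 28 Mb in cattle (71.5 ± 4.9 H3K27ac peaks, n = 2, and 62.3 ± 3.8 H3K4me3 peaks, n = 3, SD), 30 to 31 and 34 to 35 Mb in sheep, and 22 to 23 Mb in goats (81.0 ± 6.6 and 66.0 ± 3.5, SD, n = 3 each).

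A different kind of crowding lay near the end of the cattle chromosome, where H3K27ac led. The densest H3K27ac bin of cattle was 50 to 51 Mb, with 77 and 80 peaks in animals B and C against 40, 40 and 47 H3K4me3 peaks in A, B and C. The bin at 48 to 49 Mb held 47 to 55 H3K27ac peaks and 15 to 22 H3K4me3 peaks. In sheep, 51 to 52 Mb held 53 to 59 H3K27ac peaks and 33 to 38 H3K4me3 peaks, the widest gap between mean counts of that species among bins where H3K27ac was higher. In goats the widest gap of this kind was near the start instead, at 8 to 9 Mb, with 38 to 45 H3K27ac peaks and 11 to 15 H3K4me3 peaks. These bins were picked for their counts and are a description.

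The goat profile ran the other way round. With each chromosome cut into 50 equal parts, cattle and sheep correlated in the same orientation with r = 0.73 for H3K27ac and 0.79 for H3K4me3. Cattle and goats correlated with r = -0.22 and -0.34 in the same orientation, and with 0.42 and 0.55 when the goat chromosome was reversed. Sheep and goats gave -0.10 and -0.24 in the same orientation and 0.39 and 0.53 reversed. The parts of a chromosome are neighbours and the spans differ (52.5 Mb in cattle, 55.8 in sheep and 48.9 in goats), so these values carry no test. The direction in which an assembly numbers a chromosome and the order of sequence along it cannot be told apart in peak lists.

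Bins where all libraries of a mark exceeded all of the other were counted next. H3K27ac was higher in 38 of 53 bins in cattle (71.7%), against 59.2% of all autosome bins of the species. It was higher in 24 of 56 bins in sheep (42.9%), against 41.8%, and in 34 of 49 in goats (69.4%), against 62.9%. H3K4me3 was higher in 5 bins of cattle, against 7.99% of all autosome bins, in 7 bins of sheep, against 8.44%, and in 4 bins of goats, against 4.28%. As shares of the chromosome these are 9.43%, 12.5% and 8.16%. The shares were above the background in all 6 counts, but some lay close to it, as in sheep H3K27ac, and those of H3K4me3 rest on few bins. The background includes this chromosome, and no count was tested. In part the balance differed with the set of peaks kept, and whether their number or their strength mattered was not tested. At the stricter threshold, H3K27ac was higher in 12 bins and H3K4me3 in 15 in sheep, while H3K27ac stayed ahead with 29 against 5 in cattle and 23 against 5 in goats. Among the 20000 strongest peaks it was 11 and 13 in cattle, 12 and 11 in sheep and 14 and 5 in goats. For these settings no share over all autosome bins is given.

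Most of the bins with more H3K4me3 held few peaks, but 1 or 2 in each species were crowded and lay within the dense segment. In cattle, 30 to 31 Mb held 42, 44 and 47 H3K4me3 peaks in A, B and C against 27 and 26 H3K27ac peaks in B and C, and 31 to 32 Mb is the densest H3K4me3 bin given above. In sheep, 33 to 34 Mb held 43, 37 and 38 H3K4me3 peaks against 17, 18 and 13 H3K27ac peaks in A, B and C. The sheep bin before it, 32 to 33 Mb, held 30 to 32 against 23 to 27. In goats, 19 to 20 Mb held 34, 35 and 34 H3K4me3 peaks against 25, 26 and 26 H3K27ac peaks. The ranges of the marks did not overlap in any of these bins, which is how they were chosen.

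The consensus regions of such bins, meaning peaks found in at least 2 animals and merged, often lacked H3K27ac. In cattle 30 to 31 Mb, 22 of 43 consensus H3K4me3 regions overlapped no consensus H3K27ac region, and in sheep 33 to 34 Mb, 26 of 39 did not. In goats 19 to 20 Mb, it was 9 of 33. Over all bins with more H3K4me3, cattle had a share of 46.5%, sheep of 58.6% and goats of 37.5%, against 26.5%, 29.5% and 21.6% in the other bins of the chromosome. The share follows in part from how the bins were chosen. Peak strength, as the fold enrichment of the authors' peak caller, did not lean one way there. In cattle the median of a library was 4.82 to 5.60 in these bins and 6.18 to 6.93 in the others. In sheep it was 6.95 to 7.56 against 6.32 to 6.52, and in goats 7.14 to 8.78 against 6.47 to 7.15.

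The other end of the scale was empty sequence. The longest stretch without a peak of either mark in any library was 1.63 Mb in cattle, from 961807 to 2589793. It was 1.35 Mb in sheep, from 49315500 to 50662659, and 1.56 Mb in goats, from 46313969 to 47871696. In cattle and goats it lay within 3 Mb of a chromosome end, the start in cattle and the last peak in goats, which are the ends that correspond once the goat profile is turned round. The second longest were 1.55 Mb in cattle, from 34018552, 1.01 Mb in sheep, from 2269583, and 1.28 Mb in goats, from 3211925. Cattle bin 1 to 2 Mb had 0 peaks in all 5 libraries. Without reads, an empty stretch cannot be told apart from sequence to which reads were not mapped.

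The second comparison asked how the marks overlapped. In cattle B and C, 49.96% and 51.9% of the H3K27ac peaks on the chromosome had no H3K4me3 peak of the same animal, against 53.2% and 55.7% on the other autosomes. In sheep A, B and C the share was 40.8%, 36.8% and 41.0%, against 47.7%, 40.7% and 45.5%. In goats A, B and C it was 43.0%, 43.5% and 40.8%, against 50.1%, 51.4% and 48.6%. The share of H3K27ac alone was therefore lower on the chromosome in 8 of 8 animals, by 5.68 percentage points on average (difference -5.68, exact sign-flip test, p = 0.0078125, the smallest possible, adjusted p = 0.0122). How many other autosomes lay below the rest in every animal was not counted. By species the difference was -3.53 ± 0.35 points (cattle, n = 2), -5.13 ± 1.55 (sheep, n = 3) and -7.65 ± 0.46 (goats, n = 3), each with its SD. It was -1.24 points among the 20000 strongest peaks of each library (p = 0.297, the same exact test). H3K4me3 peaks were also denser on the chromosome, as given above, and the part of that density in this share was not tested.

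Seen from H3K4me3, the overlap was near that of the other autosomes. Between 46.7% and 65.2% of the H3K4me3 peaks on the chromosome had at least 50% of their length under an H3K27ac peak of that animal. The difference from the other autosomes averaged -0.77 points, with 6 of 8 animals lower, and did not pass the threshold (exact sign-flip test, p = 0.0938, adjusted p = 0.109). It passed with a stricter threshold on peaks (-1.47 points, p = 0.0156, exact), with the 20000 strongest peaks (-3.09, p = 0.00781, exact), with reciprocal overlap (-0.91, p = 0.0391, exact) and without cattle animal B (-1.01, p = 0.0312, exact). It came closer to 0 when any overlap counted (-0.13, p = 0.797, exact) and without the first and last 1 Mb (-0.033, p = 0.945, exact).

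Consensus regions were sorted into promoters, which are H3K27ac regions with 50% or more of their length under H3K4me3, and enhancers, which are H3K27ac regions without H3K4me3. The chromosome held 568 promoters and 418 enhancers in cattle, 687 and 379 in sheep, and 705 and 476 in goats. Enhancers made up 40.9% of its H3K27ac regions in cattle, against 44.3% on the other autosomes. The shares were 34.6% against 40.6% in sheep and 39.1% against 47.0% in goats. Each share is 1 value per species without replicate error. Partial overlaps numbered 35, 30 and 35, and consensus H3K4me3 regions without H3K27ac numbered 240, 316 and 190. The latter were 30.2%, 32.5% and 22.4% of the H3K4me3 regions, near the 32.2%, 30.6% and 22.5% of the other autosomes. Promoters had a median width of 748 bp in cattle, 702 in sheep and 758 in goats, and enhancers of 499, 480 and 468.5 bp.

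**Figure D3:**
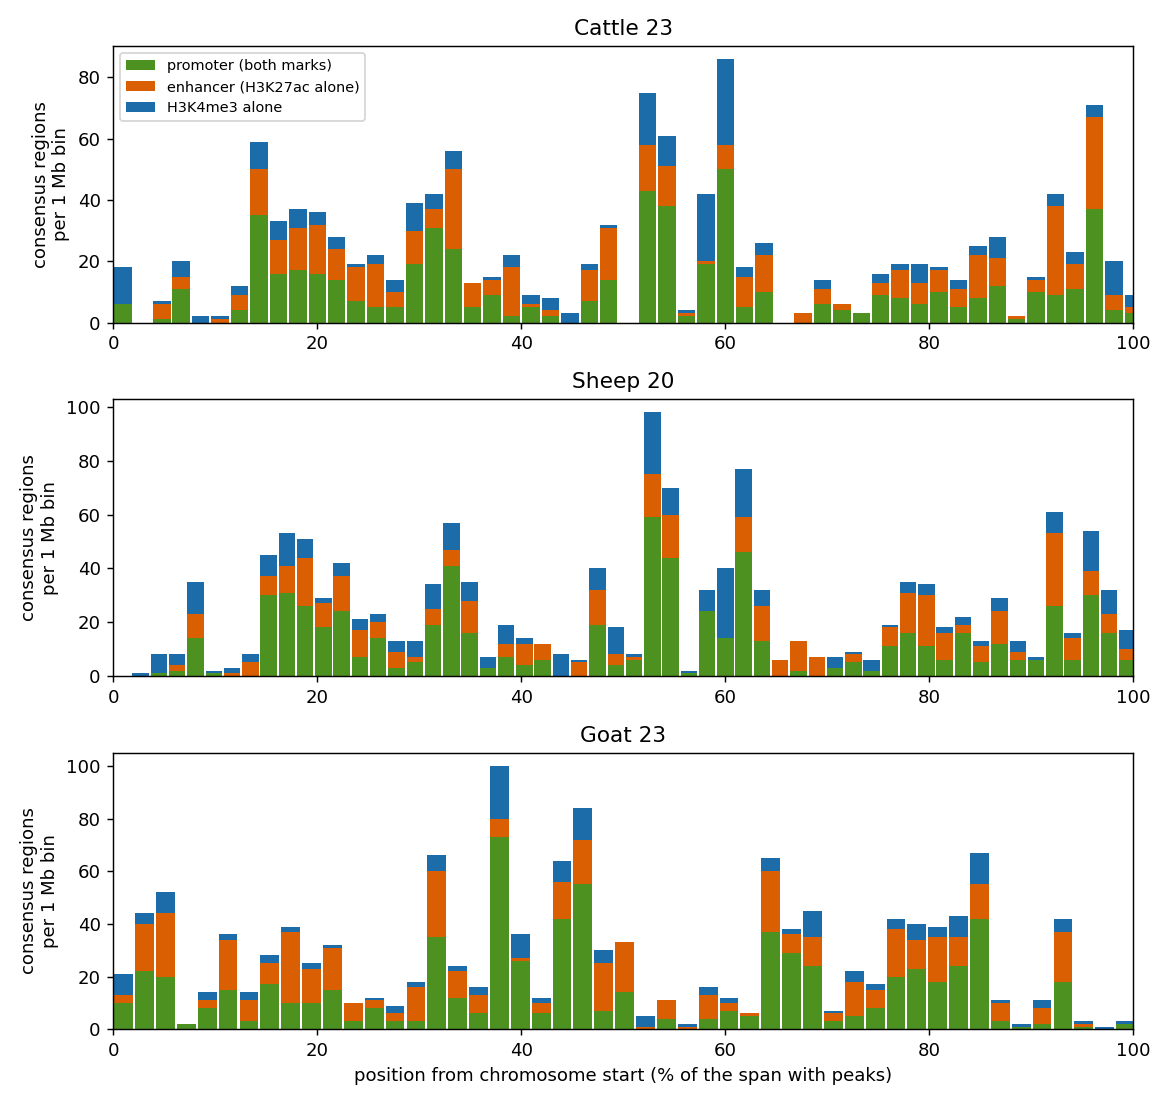
Consensus regions per 1 Mb bin along the chromosome, stacked by class (promoter, enhancer and H3K4me3 alone), with position as a percentage of the span with peaks. The tallest promoter bars, with 50 in cattle, 59 in sheep and 73 in goats, stand in the dense segment, and the tallest enhancer bars, with 30, 27 and 27, stand away from it.

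Promoters and enhancers crowded in different places. The 5 Mb window with most promoters was 27 to 32 Mb in cattle, with 152 of 568 promoters, 29 to 34 Mb in sheep, with 142 of 687, and 18 to 23 Mb in goats, with 202 of 705. These are 26.8%, 20.7% and 28.7% of the promoters, in 9.52%, 8.96% and 10.2% of the span. Inside the window, 19.1%, 18.1% and 17.1% of the H3K27ac regions were enhancers, against 46.2%, 37.8% and 44.9% on the rest of the chromosome. The window was chosen for its promoters, so these shares are a description. The bins with most enhancers were 50 to 51 Mb in cattle with 30, 51 to 52 Mb in sheep with 27, and 8 to 9 Mb in goats with 27.

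Peaks inside the window were also found in other animals more often than on the rest of the chromosome, with 1 exception. Of the H3K27ac peaks there, 74.4% to 83.1% in cattle, 79.3% to 89.2% in sheep and 83.3% to 90.1% in goats were found in another animal. On the rest of the chromosome it was 63.4% to 80.0%, 74.8% to 84.7% and 78.6% to 84.0%. All 8 H3K27ac libraries and 8 of 9 H3K4me3 libraries had the higher share inside the window, the exception being the H3K4me3 library of goat A, with 95.8% against 96.0%. The promoters that placed the window had to recur themselves, so no test is given.

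The third comparison asked whether peaks recurred between animals more often than on the other autosomes. A peak was found again when 1 peak of another animal of the species covered at least 50% of its length. For H3K27ac the share found in at least 1 other animal was 80.6% and 65.2% in cattle B and C, 78.6%, 85.3% and 76.9% in sheep A, B and C, and 85.3%, 79.5% and 82.5% in goats A, B and C. For H3K4me3 it was 83.6%, 96.5% and 90.7% in cattle A, B and C, 93.3%, 91.3% and 90.5% in the sheep and 96.0%, 91.0% and 88.2% in the goats. Cattle C is low for H3K27ac. The H3K27ac shares of cattle B and C each rest on 1 other animal.

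Against the other autosomes, H3K27ac peaks recurred more often by 1.24 percentage points on average, with 7 of 8 animals higher (exact sign-flip test, p = 0.0234, adjusted p = 0.0328). Each pair of animals enters the values of both, so the animals of a species are not independent, whereas the test takes 8 separate values. In cattle B and C, which rest on 1 pair, the difference was 1.57 points in each. The mean difference is small beside the spread between animals. It no longer passed when cattle animal B, cattle animal C, sheep animal C or goat animal C was left out (1.03 to 1.31 points, p = 0.0625 to 0.0938, exact). Nor did it pass with the stricter threshold on peaks or with peaks within 500 bp merged, as given in the closing section. Among the 20000 strongest peaks the sign turned (-0.44 points, p = 0.375, exact). For H3K4me3 the difference was 0.49 points, with 6 of 9 animals higher, and did not pass the threshold (exact sign-flip test, p = 0.297, adjusted p = 0.320). Among the 20000 strongest peaks it turned negative and passed (-1.14 points, p = 0.0195, exact).

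The marks differed from each other, on the chromosome as on the other autosomes. Averaged over the other animals, 65.1% to 80.6% of a library's H3K27ac peaks were found in another animal and 74.8% to 93.3% of its H3K4me3 peaks. The difference was -13.2 points, H3K27ac minus H3K4me3, over species (exact permutation test of mark labels within species, p = 0.00125, adjusted p = 0.00438). The libraries of a group share their pairs of animals here too, so their values are not independent. In sheep and goats the marks did not overlap, and in cattle they did. The mean over libraries was 71.3% for H3K27ac and 84.7% for H3K4me3, and on the other autosomes it was 69.9% and 84.5%, so a gap of similar size was present there too. Over single pairs of animals, the share ran from 63.5% to 80.6% in 14 directed pairs for H3K27ac and from 68.7% to 93.5% in 18 for H3K4me3. The lowest H3K4me3 pair was the peaks of cattle A looked for in cattle B, and the same pair the other way gave 93.5%.

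**Figure D4:**
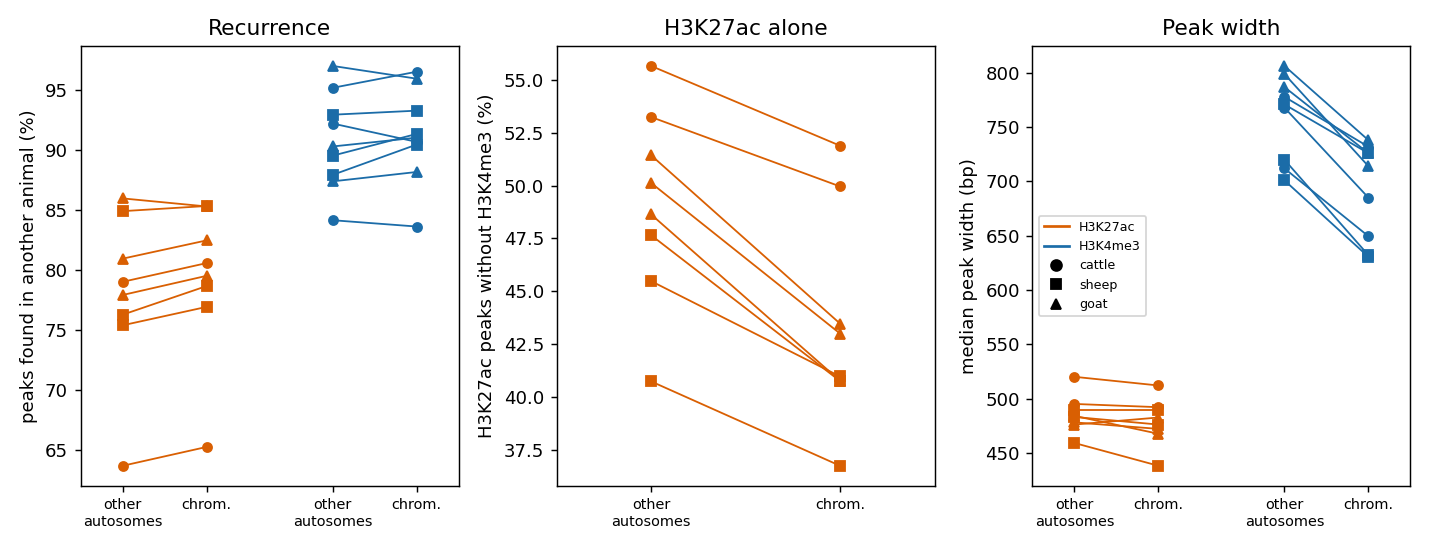
Each line joins the value of a library on the other autosomes to its value on the chromosome with the MHC. The panels show the percentage of peaks found in another animal, the percentage of H3K27ac peaks without H3K4me3 of the same animal (lower on the chromosome in 8 of 8 animals), and the median peak width in bp (lower in 9 of 9 H3K4me3 libraries).

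H3K4me3 peaks were narrower on the chromosome. Their median width was 732, 649.5 and 685 bp in cattle A, B and C, against 778, 712 and 768 bp on the other autosomes. It was 632, 630.5 and 726 bp against 720, 701 and 771 bp in the sheep, and 714, 726 and 738 bp against 799, 787 and 806.5 bp in the goats. The mean ratio was 0.91, with 9 of 9 libraries lower (exact sign-flip test, p = 0.00390625, the smallest possible, adjusted p = 0.00911). For width too, the number of other autosomes lower in every library was not counted. H3K27ac widths were 438 to 512 bp against 459 to 520 bp, a ratio of 0.986 that did not pass the threshold, with 6 of 8 libraries lower, 1 equal and 1 higher (exact sign-flip test, p = 0.0625, adjusted p = 0.0795). It passed with the stricter threshold on peaks, with the 20000 strongest peaks and without goat animal B. The median fold enrichment of the H3K4me3 peaks, as the authors' caller gave it, was 0.899 to 0.971 times that of the other autosomes in all 9 libraries, so that both width and strength were lower there.

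Regions were ranked by the −log10 q of their peaks, taking the poorest rank over the libraries of a species, and this order differs from that by fold enrichment. On cattle chromosome 23, the H3K27ac region from 14594704 to 14595135 had fold enrichments of 29.3 and 30.3 in B and C, and H3K4me3 peaks of 26.1, 26.1 and 27.8 in A, B and C overlapped it. The region from 38631798 to 38632225 had H3K27ac fold enrichments of 29.6 and 29.6, and H3K4me3 of 33.6, 32.7 and 32.4 in A, B and C. Both were narrow, at 432 and 428 bp, and led the chromosome by −log10 q for each mark. The third H3K27ac region of cattle by that rank, from 48004689 to 48005503, had folds of 7.36 and 10.1. Each cattle H3K27ac library had 2 peaks on the chromosome with a fold of at least 20, those of the 2 leading regions. The H3K4me3 library of cattle A had 2 such peaks and those of B and C 3 each, and over all autosomes a cattle library had 46 to 87.

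In sheep and goats no H3K27ac library reached a fold of 20 on the chromosome. Such peaks were rare over all autosomes too, with 9, 6 and 5 in sheep A, B and C and 3, 2 and 3 in the goats. For H3K4me3 the chromosome held 4, 3 and 1 of 57, 66 and 37 in the sheep. In the goats it held 0, 2 and 1 of 10, 71 and 54. The leading H3K27ac region of sheep by −log10 q, on chromosome 20 from 9533182 to 9533729, had fold enrichments of 14.0, 15.2 and 17.4 in A, B and C, with H3K4me3 at 18.7, 19.0 and 15.7. That of goats, on chromosome 23 from 21359756 to 21361051, lay in the window with most promoters and had 9.09, 9.08 and 9.72, with H3K4me3 at 11.6, 14.0 and 14.0. A goat region of lower rank, from 38607577 to 38609462, had higher folds, of 10.4 to 12.4. The leading H3K4me3 region by −log10 q was at 51483685 to 51485334 in sheep, with folds of 13.8, 13.4 and 12.3, while the next, from 12923002 to 12924035, had 16.06 to 17.05. In goats it was at 48860587 to 48862225, close to the last peak of the chromosome, which ended at 48863965, with folds of 7.70, 9.76 and 8.47, below the 15.6 to 17.5 of the next, from 37468112 to 37469053. All 6 of these leading regions carried both marks in every library of their species.

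The widest regions were of lower fold enrichment. The widest H3K4me3 region spanned 3100 bp in cattle (17281985 to 17285084), 3211 bp in sheep (18995358 to 18998568) and 2945 bp in goats (31554200 to 31557144), with fold enrichments of 3.93 to 5.20 over the 9 libraries. The widest H3K27ac region spanned 2954 bp in cattle (48168657 to 48171610), 3030 bp in sheep (8985203 to 8988232) and 2772 bp in goats (2229631 to 2232402), with 2.89 to 4.74. Each of these overlapped the other mark, and the sheep H3K27ac region was covered over less than 50% of its length.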

How the data were processed

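Lists came from frozen liver. Per the methods, the authors used Trim Galore 0.4.0 for trimming, BWA-MEM 0.7.17 for alignment and Picard 2.25.0 against duplicates, subsampled the reads and called narrow peaks per library with MACS2 2.1.1. Pooling is not mentioned, and whether inputs served as background is not stated. The labels name ARS-UCD1.2 for all samples and the methods a build per species. Each deposited list gives positions, a fold enrichment (a ratio to background) and −log10 of p- and q-values as the authors' caller wrote them.

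Rows sharing an interval were joined (840697 rows). Density is peaks per Mb up to the last peak of the species, and the comparison is with the other autosomes, without X, mitochondrial and unplaced sequence. Tests are exact and two-sided (F has no direction), with a threshold of 0.05, and p-values measure the spread between animals. For recurrence, the animals of a species share pairs, so their values are not independent. Calculations used Python 3.11.15, numpy 2.4.6, pandas 2.3.3, scipy 1.17.1 and matplotlib 3.10.9. The overlap code was tested on simulated and real lists against bedtools 2.31.1, with 0 differences in 6 comparisons, and the tests were run on simulated data. Named bins were, per species and mark, the 3 densest and sparsest, and named regions the first by poorest rank of −log10 q over libraries and the widest. The widest gaps between marks were added after values were seen. Members and lists were chosen with earlier results of these data known.

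In the titles, libraries of a liver share a letter, which pairs the marks of an animal. Deviations of log2 peak density from the group mean correlated between the marks of 8 animals (Pearson's r = 0.56, p = 0.278; Spearman's rho = 0.38, p = 0.444), by exact permutation over 72 arrangements, and r was 0.39 without the 2 animals farthest from the median. Alternatives were a q threshold of 1e-05, merging within 500 bp, the 20000 strongest peaks, every summit, covered bases, the median autosome, other overlaps and bins, a replicate block, and leaving out each animal. Leaving out the first and last 1 Mb was added after seeing the data.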

Additional observations from a re-analysis of the deposited data

Results flagged for a closer look

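For 12 contrasts, the difference between species was tested by permuting species labels (exact, F statistic), and 4 passed the threshold without adjustment. The first was the log2 difference in density between marks within an animal, H3K27ac minus H3K4me3, at 0.62 ± 0.02 (cattle, n = 2), 0.25 ± 0.10 (sheep, n = 3) and 0.58 ± 0.08 (goats, n = 3), each with its SD (exact permutation test over 560 arrangements, p = 0.0286). The second was the difference in coefficient of variation over 1 Mb bins within an animal, at -0.22 ± 0.02, -0.07 ± 0.05 and -0.21 ± 0.01 in the same order (exact permutation test, p = 0.0214). Sheep had the smaller difference between marks in both. On the other autosomes the mean densities of H3K27ac and H3K4me3 also lay closest in sheep. They were 14.1 and 10.6 peaks per Mb, against 16.1 and 9.97 in cattle and 17.8 and 10.4 in goats. With density taken relative to the other autosomes, the contrast was -0.11, -0.17 and -0.20 in the same order and did not pass (exact permutation test, p = 0.125). The coefficient of variation was not computed on the other autosomes.

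The third was the share of H3K27ac peaks without H3K4me3, on the chromosome minus the other autosomes, which was -3.53 points for the cattle, -5.13 for the sheep and -7.65 for the goats (exact permutation test, p = 0.0143). The fourth was the relative density of H3K4me3 on the log2 scale, at 0.72, 0.78 and 0.81 (exact permutation test over 1680 arrangements, p = 0.00714). Species, breed and genome build cannot be told apart in any of these.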

How the results depend on the processing

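Over all results and alternatives, 339 values kept their direction and side of the threshold (or stayed within 1.5 times a count), 7 newly passed it, 9 no longer did, 2 turned sign and 27 counts moved. The causes were not tested beyond what each alternative changes. The excess over the other autosomes, the differences between marks in relative density, recurrence and unevenness, and the narrower H3K4me3 peaks kept their call under every alternative run for them, the added one included. Libraries number 2 or 3 per group, and a list carries no read number.

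With a replicate block (marks paired within the 8 animals, exact sign-flip test, p = 0.00781 each), the differences between marks were 0.46 for log2 density, -0.17 for log2 relative density, -14.7 points for recurrence and -0.16 for the coefficient of variation, and no call changed.

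With the stricter threshold, the recurrence of H3K27ac was 0.70 points above the other autosomes (p = 0.125, exact), the share of H3K4me3 covered -1.47 points and the log2 width of H3K27ac -0.036. The bins of sheep with H3K27ac and with H3K4me3 higher then numbered 12 and 15, and enhancers 257 in cattle, 233 in sheep and 312 in goats. With peaks within 500 bp merged, H3K27ac recurrence was 0.92 (p = 0.0625, exact). With the 20000 strongest peaks, the log2 density difference was 0.0362, recurrence -0.44 points for H3K27ac and -1.14 for H3K4me3 (p = 0.0195, exact), the share of H3K27ac alone -1.24, of H3K4me3 covered -3.09 and the log2 H3K27ac width -0.079. Bins with H3K27ac and H3K4me3 higher then numbered 11 and 13 in cattle and 12 and 11 in sheep, with H3K27ac higher in 14 in goats. Promoters numbered 372, 443 and 457 and enhancers 128, 155 and 127 in cattle, sheep and goats. By covered bases the log2 density difference was 0.0535. With reciprocal overlap the H3K4me3 covered share was -0.91. With 500 kb bins, 60 and 9 bins were apart in cattle, 13 with H3K4me3 higher in sheep, and 52 and 7 in goats. With 2 Mb bins it was 22 with H3K27ac higher in cattle, 14 and 2 in sheep, and 21 and 1 in goats. The number of bins on the chromosome changes with bin size, so these counts cannot be set beside those at 1 Mb. No share over all autosome bins is given for any alternative.

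Leaving out each animal in turn, H3K27ac recurrence ran from 1.03 to 1.53 points, the H3K4me3 covered share from -1.01 to -0.53, the log2 H3K27ac width from -0.0269 to -0.0144 and the sheep bins with H3K4me3 higher from 7 to 11, the highest without sheep A. Without cattle B or C, 1 cattle H3K27ac library remains, so cattle consensus classes and the difference between marks in recurrence have no value.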
